A study of Mus musculus with 2 samples.

Results

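T-box genes encode transcription factors that share the T-box, a DNA-binding domain named after the Brachyury gene, and 10 of them are described here in the anterior and posterior sides of mouse limb buds. The members are Tbx1, Tbx2, Tbx3, Tbx4, Tbx5, Tbx6, Tbx15, Tbx18, Tbx20 and Tbx22. They were taken as the probe sets whose annotation names exactly 1 gene symbol from this list, which gave 10 probe sets, 1 per gene, among 14860 genes with a single-symbol probe set. Wild-type CD1 embryos, an outbred stock, were used at embryonic day 10.5, with the same genotype and no treatment on either side. Buds from 8 litters were cut along their midline, and the RNA of each side was pooled and hybridised to 1 Affymetrix array. The posterior array is compared with the anterior array, to ask which genes differ along the axis that later runs from thumb to little finger. The pools mix embryos and every tissue layer of the bud, and the labels do not name the limb type, forelimb or hindlimb.

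Several T-box factors are central to limb development. Tbx5 starts the forelimb bud and Tbx4 acts in the hindlimb bud, in both cases together with Fgf10, the growth factor that drives outgrowth. Tbx2 and Tbx3 are repressors made at the margins of the bud, and mice without Tbx3 lack posterior limb elements. Tbx15 and Tbx18 belong to the mesenchyme that forms bone and connective tissue, while Tbx1, Tbx6, Tbx20 and Tbx22 are best known from the pharyngeal region, the presomitic mesoderm, the heart and the palate.

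Values come from RMA and are on the log2 scale, and a difference is the posterior value minus the anterior value unless it is said to point toward anterior tissue. No test and no p-value is possible with 1 array per tissue. The local spread, given beside a difference, is the robust standard deviation of the differences of the 500 genes nearest in mean level. Noise of the arrays and true differences of these neighbours both enter it, so it does not replace a replicate error. A gene was called detected where its higher value lay above 5.06, the 95th percentile of the values of 852 receptor and defensin genes not known from limb buds. The probe sets of different genes differ in their response, so values are compared between the arrays for 1 gene and never between genes.

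Pearson's r between the arrays was 0.993, taken across genes, which do not count as independent replicates. The threshold was 1.3-fold, the selection named by the submitters, and 560 of 14860 genes (3.77%) passed it toward posterior and 713 (4.8%) toward anterior tissue. With 32 added to the linear values these counts were 60 and 157, so that the anterior share of the calls was 72.4% against 56.0% in the main setting. Ptch1 and Gli1, Hedgehog target genes of posterior mesenchyme, had posterior values 2.26-fold and 1.65-fold above the anterior ones, and Alx4, an anterior homeobox gene, was 1.56-fold higher in anterior tissue, as the labels say. All 7 limb mesenchyme markers were detected in both arrays, with means of 7.71 in the anterior and 7.38 in the posterior array and a median difference of 0.30 toward anterior tissue. Past 1.3-fold toward anterior tissue were 3 of them, Prrx2 at 1.74-fold, Msx1 at 1.79-fold and Twist1 at 1.36-fold. Prrx1 read 10.69 and 10.56. Shox2 alone of the 7 had a higher posterior value, by 0.22 with a local spread of 0.16. With the trend of the difference with level removed, the list median was -0.22.

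Tbx3 was the only T-box member past 1.3-fold, and it was higher in posterior tissue. Tbx4 leaned the same way and ended just under the threshold, and none of the 10 members was 1.3-fold higher in anterior tissue. In all 7 of the 10 members were detected, each of them in both arrays, against 60.7% of all genes. The 3 members that were not detected were Tbx6, Tbx20 and Tbx22. The count of 1 of 10 members toward posterior tissue stands beside 3.77% of all genes, and the count of 0 of 10 toward anterior tissue beside 4.8%. With the trend of the difference with level removed, 2 of 10 members passed toward posterior tissue beside 3.86% of all genes, and 0 of 10 toward anterior tissue beside 4.13%. The median difference of the members was -0.01, which turned to 0.03 with the trend removed, and the mean was 0.07, beside a median of -0.04 over all genes.

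**Figure D1:**
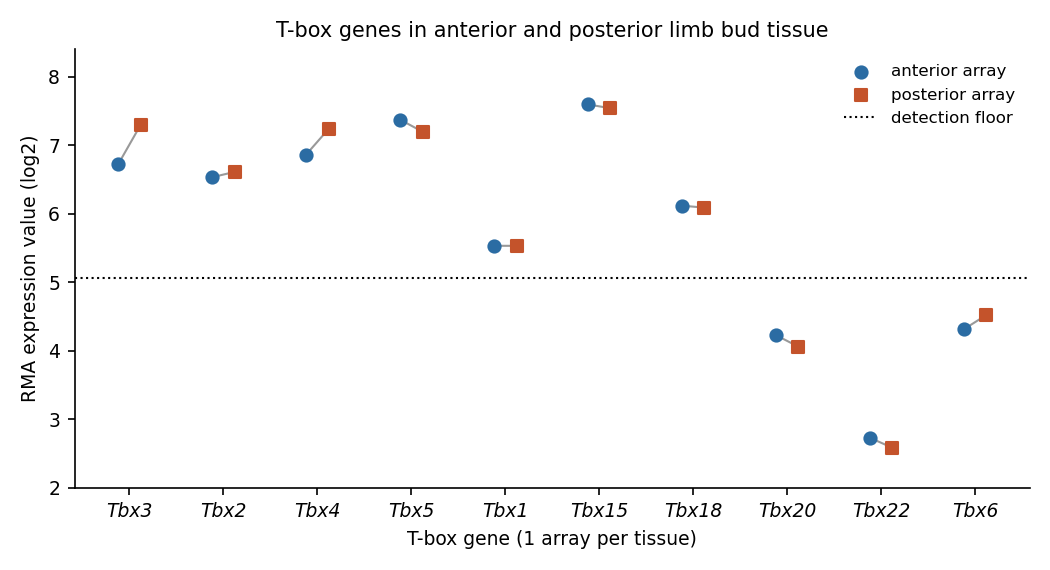
RMA expression values (log2, vertical axis) of the 10 T-box genes in the anterior array (circles) and the posterior array (squares), with the detection floor of 5.06 as a dotted line. Tbx3 and Tbx4 have their higher value in the posterior array, Tbx6, Tbx20 and Tbx22 lie under the floor in both, and heights cannot be compared between genes.

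Among the limb margin repressors, Tbx3 read 6.72 in the anterior and 7.30 in the posterior array. On the linear scale these are intensities of 105 and 157, a 1.49-fold difference toward posterior tissue. The difference was 0.58 with a local spread of 0.15. Of the 9017 detected genes 64 had a larger posterior difference. These make up 0.710% of the detected genes. In humans, loss of 1 copy of TBX3 causes ulnar-mammary syndrome, in which the little-finger side of the arm is reduced.

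Tbx2, the closest relative of Tbx3, read 6.53 in the anterior and 6.61 in the posterior array. Its difference of 0.08 was smaller than its local spread of 0.17, and 17.7% of detected genes had a more posterior value. With the trend of the difference with level removed it was 0.16, just under that spread. The difference of Tbx3 exceeded that of Tbx2 by 0.50 on the log2 scale, a contrast within the same 2 arrays that has no replicate. Both genes encode repressors with nearly the same DNA preference.

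The limb-type factors lay on opposite sides of 0. Tbx4 read 6.86 in the anterior and 7.24 in the posterior array, a difference of 0.38 with a local spread of 0.14. Its fold of 1.297 missed the threshold by 0.003 on the log2 scale. After the arrays were centred on their medians the difference was 0.40, and after the trend of the difference with level was removed it was 0.47; both pass 1.3-fold. Among the detected genes 1.87% had a larger posterior difference than Tbx4.

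Tbx5 read 7.37 in the anterior and 7.20 in the posterior array, a difference of 0.18 toward anterior tissue with a local spread of 0.14. Once the trend with level was removed the difference toward anterior tissue was under its local spread, at -0.09 in posterior minus anterior terms. Tbx4 and Tbx5 differed from each other in their posterior lean by 0.55 on the log2 scale, and by 0.56 with the trend removed. Since Tbx4 marks hindlimb and Tbx5 forelimb tissue, their values also depend on the limb types in each pool. Pitx1, the hindlimb regulator of Tbx4, read 5.61 and 5.56 in the anterior and posterior arrays, and Isl1, another hindlimb-biased factor, read 5.67 and 6.50. The part of limb type in the Tbx4 and Tbx5 differences was not tested.

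In the genome these 4 genes form neighbouring pairs, Tbx2 beside Tbx4 on chromosome 11 and Tbx3 beside Tbx5 on chromosome 5. The RefSeq gene table (GRCm38.p6, used for gene order) lists 0 protein-coding genes between the members of either pair. In both pairs the neighbours differed in their posterior lean, Tbx3 from Tbx5 by 0.76 and Tbx4 from Tbx2 by 0.30 on the log2 scale. Tbx3 and Tbx4 were the more posterior genes of their pairs.

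The RefSeq promoter table (GRCm38.p6) held 6 of the 10 members. The promoter of Tbx4 is shown because Tbx4 is the one of these 6 with the largest difference between the arrays. It covers the 250 bases before the annotated start on the plus strand, at chr11:85896515-85896764. The capitals mark matches to TATAA, the core of a TATA box, on either strand, which overlap here. They lie between 84 and 79 bases before that start, and whether they act as a TATA box was not tested.

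Tbx4: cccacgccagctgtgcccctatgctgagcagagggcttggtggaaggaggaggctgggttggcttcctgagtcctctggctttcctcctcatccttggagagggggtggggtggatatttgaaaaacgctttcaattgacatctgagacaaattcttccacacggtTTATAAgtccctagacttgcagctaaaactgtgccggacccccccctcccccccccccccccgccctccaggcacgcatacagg

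TATAA was found in 22.8% of the 32851 promoters in the table over the same length. Other motifs searched on both strands of this stretch were GGTGTG (T-box half-site, in 16.3% of all promoters), TAATCC (Pitx type, 6.25%), TAATTA (LIM and other homeodomains, 4.84%) and GACCACCCA (Gli, 0.225%). These letters did not occur in the window of Tbx4. The G and C content of the stretch was 58.4%, against a median of 52.4% over all promoters.

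**Figure D2:**
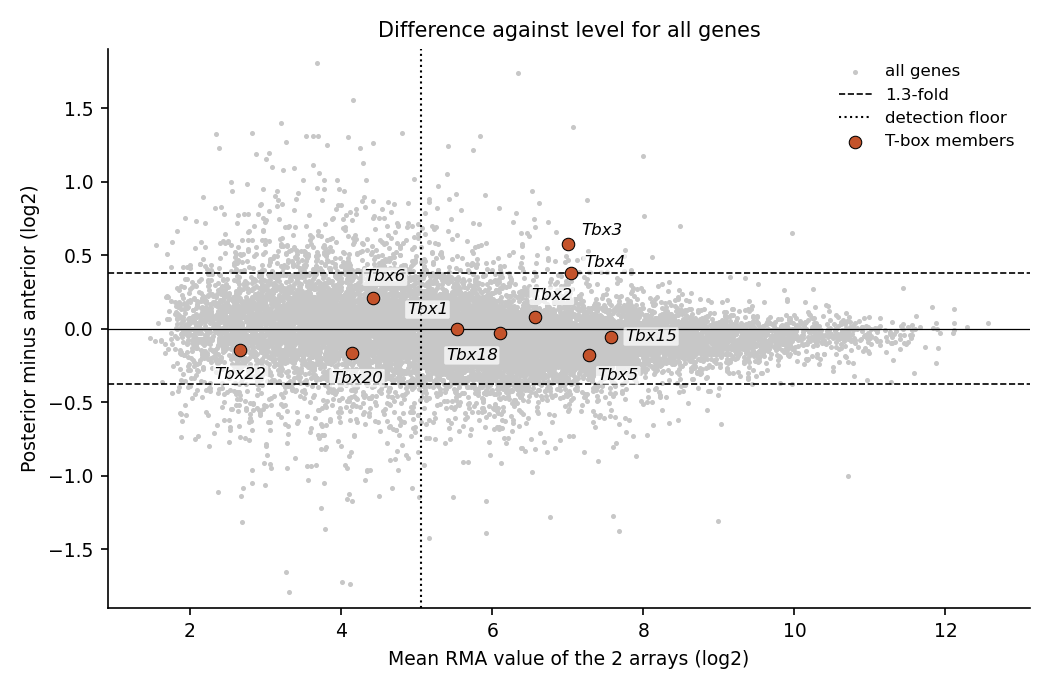
Posterior minus anterior difference (log2, vertical axis) against the mean RMA value of the arrays (log2, horizontal axis) for all 14860 genes (grey) and the 10 T-box members (orange), with dashed lines at 1.3-fold. Tbx3 lies above the upper dashed line and Tbx4 on its lower edge, and the other 8 members lie between the lines.

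Tbx3 and Tbx4 lie at levels where posterior differences of this size were few. Among the 4133 genes of mean level 6 to 8, 56 genes (1.35%) were past 1.3-fold on the posterior side and 217 (5.25%) on the anterior side. Over the detected genes the shares were 1.85% and 4.68%. Detected genes near Tbx3 were sought by the pair of their values over the 2 arrays. Clone and predicted-gene symbols and the background receptor and defensin genes were left out. The nearest were Sting1, Sall1 and Znrf2, at distances of 0.07, 0.08 and 0.11 on the log2 scale. Sall1, a zinc-finger factor mutated in human Townes-Brocks syndrome, was 1.38-fold higher in posterior tissue. Sting1, an adaptor of innate immune signalling, was 1.41-fold higher, and Znrf2, a ubiquitin ligase, 1.37-fold. A likeness over 2 arrays reflects 1 level and 1 difference and no more.

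The mesenchymal members Tbx15 and Tbx18 and the pharyngeal gene Tbx1 were detected at nearly equal values on both sides. Tbx15, which acts in skeletal development, read 7.60 in the anterior and 7.54 in the posterior array. Tbx18, known from limb mesenchyme, somites and the ureter, read 6.12 and 6.09. Tbx1, the gene of the DiGeorge region in humans, read 5.53 in both. The differences of these 3 genes were -0.06, -0.03 and 0.00, each under its local spread of 0.13, 0.17 and 0.19, and all 3 crossed to the posterior side when the trend with level was removed, as Tbx1 also did with median-centred arrays. With the floor at the 99th percentile of the background genes, 6.01, Tbx1 was no longer detected and 6 members remained.

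Tbx6, Tbx20 and Tbx22 lay under the floor in both arrays. Tbx6, a regulator of the presomitic mesoderm, read 4.31 in the anterior and 4.52 in the posterior array. Tbx20, a heart factor, read 4.23 and 4.06, and Tbx22, a gene of palate formation, 2.73 and 2.58. Values under the floor have no order, so no direction is given for these genes.

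Markers of the presomitic mesoderm and somites and of the heart are given beside Tbx6 and Tbx20. Of the 7 markers of the presomitic mesoderm and somites with a probe set, 5 were detected, and Msgn1 of the presomitic mesoderm, at 4.11 and 3.38, and Dll1, at 4.72 in both arrays, were not. The somite genes Pax1 and Pax9 differed by 0.40 and 0.37 toward anterior tissue; Pax1 was 1.32-fold higher and fell to 0.37 with the trend with level removed, under 1.3-fold, and the posterior value of Pax9 lay under the floor. Of the other detected markers of this list, Meox1 differed by 0.19 toward anterior tissue, and Mesp2 by 0.18 and Uncx by 0.11 toward posterior tissue. Mean marker values of this list were 5.18 in the anterior and 4.98 in the posterior array. Of 3 heart markers with a probe set only Nkx2-5 was detected, at 5.21 and 5.55, with list means of 4.74 and 4.78. Whether cells of these tissues entered the pools was not tested. On bulk arrays, fewer cells of a type and less RNA per cell cannot be told apart.

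**Figure D3:**
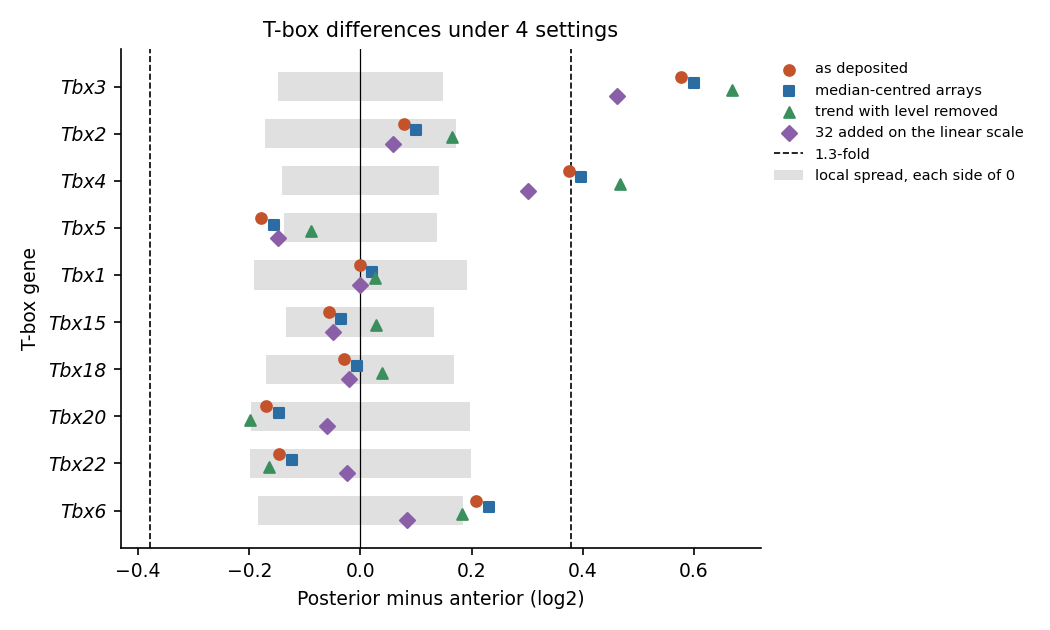
Posterior minus anterior difference (log2, horizontal axis) of each T-box gene as deposited (circles), with median-centred arrays (squares), with the trend with level removed (triangles) and with 32 added on the linear scale (diamonds); grey bars show the local spread on each side of 0 and dashed lines 1.3-fold. Tbx3 stays between 0.46 and 0.67, past 1.3-fold in all 4 settings, and Tbx4 between 0.30 and 0.47, on both sides of the threshold.

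T-box genes outside the member list were also measured. Of 7 such genes 6 had a probe set and 3 were detected. None passed 1.3-fold, beside 3.77% of all genes toward posterior and 4.8% toward anterior tissue, so this count is near those shares. Mga, which pairs a T-box with a basic helix-loop-helix domain and is widely expressed, read 8.55 in the anterior and 8.50 in the posterior array. Tbx10 read 6.08 in both arrays, and Tbx21, a master factor of T helper cells, 5.13 and 5.32. Tbr1, Eomes and Tbx19 were not detected. The median difference of this list was -0.02.

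Among regulators of Tbx4 and Tbx5 in the limb field, most Hox genes leaned toward anterior tissue and Isl1 toward posterior tissue. Of 11 genes, 10 had a higher anterior value, as did 57.0% of all genes. The median was 0.32 toward anterior tissue, or 0.24 with the trend with level removed, beside 0.04 toward anterior tissue over all genes and 0.07 over detected genes. Past 1.3-fold toward anterior tissue were 4 of the 11, beside 4.8% of all genes and 4.68% of detected genes. Hoxc4, of the paralogue group that binds the Tbx5 forelimb enhancer, was 1.52-fold higher, and Hoxc8, of the group that restrains this enhancer, 1.33-fold; Hoxc8 fell under the threshold with the trend removed. Hoxb5 and Hoxc5 passed by their measured values, but their posterior values lay under the floor, which leaves at least 1.16-fold and at least 1.03-fold. Isl1, which acts before Tbx4 in the hindlimb field, was 1.77-fold higher in posterior tissue. The anterior leans of Pitx1, Hoxb4 and Hoxc9 were 0.05, 0.14 and 0.14. They lay under their local spreads of 0.19, 0.17 and 0.18.

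Genes known to act downstream of Tbx5 or Tbx4 did not pass 1.3-fold. This count is near the shares over all genes, 3.77% toward posterior and 4.8% toward anterior tissue. Of 4 such genes 3 were detected. Fgf10 differed by 0.09 with a local spread of 0.16. Sall4, a zinc-finger target of Tbx5 in the forelimb, differed by 0.15 toward anterior tissue with a local spread of 0.11, and Gja5, a gap junction gene, by 0.02. With the trend with level removed Sall4 lay at -0.07, under its local spread, as Tbx5 did at -0.09. The same correction moved the other 2 detected genes further to the posterior side. Fgf10 lay at 0.165, about equal to its local spread, and Gja5 at 0.11, under its local spread of 0.16.

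Signalling genes tied to Tbx2 and Tbx3 in limb buds lay on both sides of 0. Of the 9 with a probe set, 2 passed 1.3-fold toward posterior tissue, beside 3.77% of all genes, and 1 toward anterior tissue, beside 4.8%. Shh, the posterior signal, and Hand2, its upstream regulator, passed toward posterior tissue, as Tbx3 did. The anterior value of Shh was under the floor, which leaves a posterior excess of at least 1.64-fold, and Hand2 read 5.21 and 5.85, a 1.56-fold difference. Gli3, the repressor of the pathway, was 1.47-fold higher in anterior tissue. Bmp4, a BMP ligand made where Tbx2 and Tbx3 are expressed, differed by 0.15 toward posterior tissue, and Bmp7 by 0.33 toward anterior tissue. Each of these 2 had a local spread of 0.13. Fgf4 differed by 0.31 toward posterior tissue with a local spread of 0.17. The differences of Grem1 and Fgf8 lay under their local spreads. Bmp2 was not detected. The median of the list was 0.15 toward posterior tissue, 0.09 over its detected genes and 0.24 with the trend with level removed.

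Of the genes that Tbx2 or Tbx3 repress in cultured cells, 3 had a probe set. Cdkn1a, the cell cycle inhibitor p21, read 5.07 in the anterior and 5.58 in the posterior array, a 1.43-fold difference toward posterior tissue. The anterior value of Cdkn1a lay at the floor. Cdkn2a, a tumour suppressor locus, differed by 0.06 and Cdh1, the epithelial cadherin, by 0.03, each under its local spread of 0.18. The part of Tbx2 and Tbx3 in these values was not tested.

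Cofactors of T-box proteins stayed under 1.3-fold. This is near the shares over all genes, of which 3.77% passed toward posterior and 4.8% toward anterior tissue. All 8 with a probe set were detected, and the median difference was 0.00, or 0.07 with the trend with level removed. Ripply3, which recruits Groucho corepressors to T-box proteins, had the largest difference of the list, 0.20 toward posterior tissue with a local spread of 0.19; its anterior value of 4.94 lay under the floor, which leaves at least 1.06-fold. Among the Groucho corepressors, Tle3 differed by 0.12 toward anterior and Tle4 by 0.10 toward posterior tissue. Wwtr1, the coactivator TAZ that binds Tbx5, differed by 0.10 toward posterior and Yap1 by 0.05 toward anterior tissue. Pdlim7, which binds Tbx5 and Tbx4 and holds them in the cytoplasm, differed by 0.12 toward anterior tissue. Yap1 crossed to the posterior side with the trend with level removed, where Tle3 and Pdlim7 lay at -0.03. The same correction put Tle4 at 0.19 and Wwtr1 at 0.19, past their local spreads of 0.15 and 0.17.

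**Figure D4:**
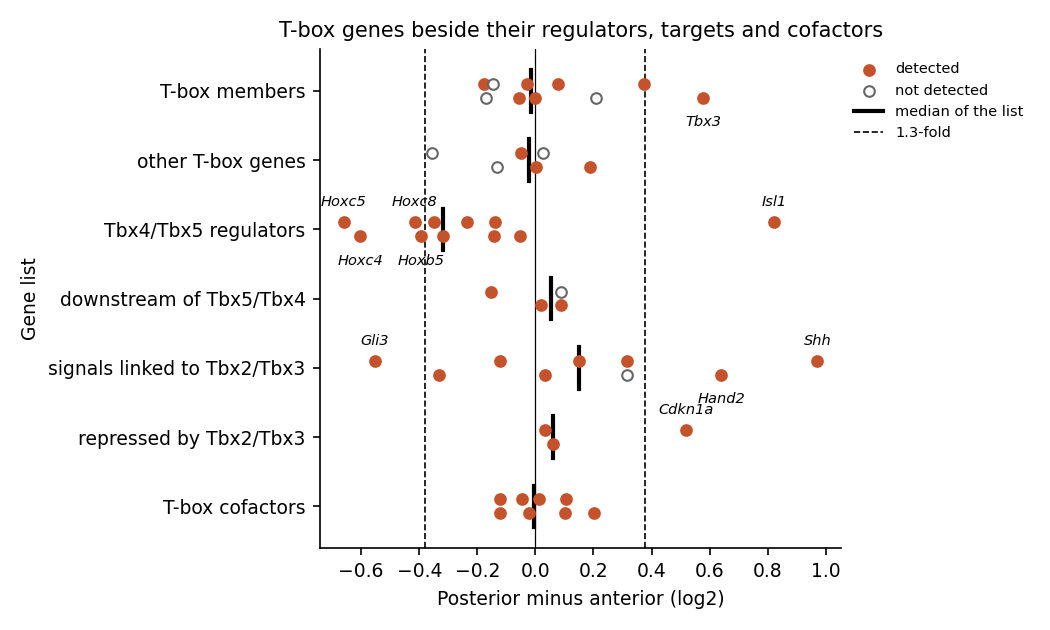
Posterior minus anterior difference (log2, horizontal axis) of each gene of the T-box members and 6 related lists, with filled points for detected and open points for undetected genes, black bars at list medians and dashed lines at 1.3-fold. Genes past 1.3-fold are named; the regulators of Tbx4 and Tbx5 have their median at 0.32 toward anterior tissue, while the T-box members have theirs at -0.01.

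Markers of other cell types that a limb bud holds are given for the same arrays. Ectoderm markers, all 5 detected, had means of 6.79 and 6.84, and Krt5 alone passed 1.3-fold, at 1.40-fold toward posterior tissue. Epcam, Trp63 and Krt14 had higher anterior values, and Cdh1 differed by 0.03 toward posterior tissue. The list median was 0.06 toward anterior tissue, or 0.01 toward posterior tissue with the trend with level removed. Tbx2 and Tbx3 are also made in the apical ectoderm, and the part of ectoderm in the Tbx3 difference was not tested. Endothelial markers, all 4 detected, had means of 6.89 and 6.77 and none passed, which is near the shares over all genes. Higher in anterior tissue were 3 of the 4, and Tek differed most, by 0.30 with a local spread of 0.18. Of 5 muscle progenitor markers 2 were detected, with list means of 4.75 and 4.81. Myod1 passed toward posterior tissue by its measured values, with an anterior value under the floor that leaves at least 1.03-fold, and Lbx1, Myf5 and Myog were under the floor in both arrays. Mesothelium and flank markers were detected for 2 of 5 genes, Wt1 and Gata4, with list means of 4.76 and 4.81. Wt1 and Gata4 differed by 0.33 and 0.35 toward posterior tissue, with local spreads of 0.18 and 0.19. The red blood cell genes Hba-x and Hbb-y differed by 0.00 and 0.01.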

How the data were processed

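The deposited values are log2 expression values that the authors obtained with RMA in Affymetrix Expression Console at the core gene level, per the labels. Build mm9 is named in the submitters' processing notes, which give no version of the software. RMA usually includes quantile normalization, which removes overall brightness differences. The number of arrays limits the precision. Each column was matched to its sample by name, and 0 columns were left over.

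Of 23332 probe sets, 14996 had 1 gene symbol, 1019 several and 7317 none in the platform annotation. Probe sets of a symbol were averaged. Gene IDs of all 10 members matched RefSeq. Trends with level were fitted by lowess (fraction 0.3, statsmodels 0.14.6, Python 3.11.15); the code was tested on simulated data. The robust standard deviation is 1.4826 times the median absolute deviation. The members, lists and naming rule (all members, list genes past 1.3-fold or of largest difference, nearest genes) were chosen with earlier results of these data known; TATAA, the level range of 6 to 8 and list or marker genes named beyond this rule were chosen after values were seen.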

Additional observations from a re-analysis of the deposited data

How the results depend on the processing

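The count of T-box members past 1.3-fold toward posterior tissue was 1 as deposited. With median-centred arrays it was 2, Tbx3 and Tbx4, beside 651 of all 14860 genes. It was also 2 with the trend with level removed, beside 573 genes, and at a threshold of 1.2-fold, beside 1114 genes. At 1.5-fold, which Tbx3 just misses, it was 0, beside 199 genes. It was 1 among detected genes, with 32 added on the linear scale, with the brightest probe set and with values under the floor raised to it. The anterior count was 0 in each of these settings. The median difference of the members ranged from -0.01 to 0.03, and of 47 single-gene values under the alternatives none moved by more than its local spread. Many of these values could not move. Each member has 1 probe set, so the brightest probe set gave the same value, as did the limit to detected genes. Median-centring shifted all members by the same amount, so the count of unmoved values is no measure of stability. Over all genes, 167 and 422 detected genes passed toward posterior and anterior tissue, 1114 and 1618 genes passed 1.2-fold, and 199 and 226 passed 1.5-fold. No paired analysis was possible because each tissue has 1 array. Single arrays limit every value, and no replicate could be left out.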
